A study of Mus musculus with 267 samples.

Results

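The regions described here are the stretches of chromatin that were called open by ATAC-seq in C57BL/6J bone marrow-derived macrophages (BMDMs) after 24 h of IL-4 but not in the untreated cells. They are the rows of the deposited C57 table of 1000 bp windows whose peak condition names the 24 h IL-4 peak set and not the basal one, and they are called IL-4-gained regions below. There were 11513 of them among 67742 windows (17%), against 35438 windows (52.3%) open in both conditions and 20791 (30.7%) open only in basal cells. The choice rests on ATAC-seq peak calls, whose values were not analysed here, so nothing can be given for regions just on either side of the call. A region in a peak list of one condition may still have been accessible below the calling threshold in the other.

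Bone marrow of healthy young adult female mice was cultured for 7 days with macrophage colony-stimulating factor, and the BMDMs were left untreated (basal) or given 20 ng/mL of mouse IL-4 for 1, 6 or 24 h. The series is a set of chromatin immunoprecipitation (ChIP-seq) experiments. In C57 cells the main table holds 2 basal and 2 24 h IL-4 libraries each for H3K27ac, H3K4me2 and H3K4me3 and 4 basal and 3 24 h libraries for RNA polymerase II (Pol II). Peak lists of STAT6 and EGR2 (basal, 1, 6 and 24 h) and of PPARγ, PU.1 and C/EBPβ (basal and 24 h) were laid over the windows, and H3K27ac libraries of BALB/cJ, NOD/ShiLtJ, PWK/PhJ and SPRET/EiJ BMDMs were used for comparison. BMDMs of Egr2 fl/fl mice, which carry floxed Egr2 alleles and no Cre, and of LyzM-Cre Egr2 fl/fl mice, in which the myeloid LyzM promoter drives Cre, were compared at EGR2 sites, each with 2 libraries per condition. EGR2 itself was not measured in the files of these genotypes used here, so the deletion was not checked.

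IL-4 signals through its receptor and the kinases JAK1 and JAK3 to STAT6, which dimerises and binds paired TTC and GAA half-sites. In macrophages this response turns on genes of alternative activation, among them further regulators such as EGR2 and PPARγ. PU.1 and C/EBPβ are the lineage factors that keep macrophage enhancers accessible. H3K4me2 marks enhancers and promoters whether or not they are active, H3K27ac marks active ones, H3K4me3 is strongest at promoters, and Pol II is found at active promoters, enhancers and gene bodies.

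The central 200 bases are printed here for the IL-4-gained regions with the largest gain of H3K27ac. Those with the highest H3K27ac at 24 h under peaks of all 5 factors are added. Bases are from the plus strand of GRCm38.p6, the RefSeq release of the mm10 build. These regions were picked by their H3K27ac, so their motifs do not stand for the gained regions as a whole. Capitals mark matches on either strand to the motifs searched, which were the STAT6 palindrome (TTC and GAA with 4 bases between), an EGR core (GTGGGCG), a PU.1 core (GGAAGTG), AP-1 (TGANTCA), C/EBP (TTGCNNAA) and the DR1 element of PPARγ with RXR. The first 5 sequences belong to the largest gains, and the last 2 to regions with high H3K27ac in both conditions.
Tex9 intron, chr9:72485532-72485731: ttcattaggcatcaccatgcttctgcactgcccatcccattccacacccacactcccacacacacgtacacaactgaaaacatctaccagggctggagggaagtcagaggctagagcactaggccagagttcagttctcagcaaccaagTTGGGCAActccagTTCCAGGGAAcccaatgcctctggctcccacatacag
Nbas intron, chr12:13410247-13410446: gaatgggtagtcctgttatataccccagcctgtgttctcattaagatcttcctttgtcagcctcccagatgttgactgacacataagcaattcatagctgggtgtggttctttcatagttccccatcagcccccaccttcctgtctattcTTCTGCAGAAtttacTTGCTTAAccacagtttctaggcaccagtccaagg
Ang5 intergenic, chr14:43965938-43966137: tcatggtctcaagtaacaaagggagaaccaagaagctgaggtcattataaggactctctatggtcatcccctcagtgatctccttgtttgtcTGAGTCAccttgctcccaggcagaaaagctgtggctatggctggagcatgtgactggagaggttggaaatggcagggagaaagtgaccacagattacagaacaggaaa
Mef2c distal, chr13:83024071-83024270: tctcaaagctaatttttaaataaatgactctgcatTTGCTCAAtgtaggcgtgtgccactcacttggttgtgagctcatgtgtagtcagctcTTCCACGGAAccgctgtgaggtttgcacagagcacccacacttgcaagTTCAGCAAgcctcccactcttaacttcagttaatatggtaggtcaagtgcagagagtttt
Ttc27 intron, chr17:74723223-74723422: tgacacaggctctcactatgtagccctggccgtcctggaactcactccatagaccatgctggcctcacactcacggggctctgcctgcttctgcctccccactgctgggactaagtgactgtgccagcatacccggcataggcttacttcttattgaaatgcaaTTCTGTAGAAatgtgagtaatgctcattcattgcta
Ubb promoter, chr11:62550351-62550550: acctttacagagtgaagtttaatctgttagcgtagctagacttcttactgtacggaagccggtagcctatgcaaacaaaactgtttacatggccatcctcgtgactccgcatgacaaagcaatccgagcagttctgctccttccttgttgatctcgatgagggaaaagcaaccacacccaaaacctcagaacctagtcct
Acta1 distal, chr8:123884313-123884512: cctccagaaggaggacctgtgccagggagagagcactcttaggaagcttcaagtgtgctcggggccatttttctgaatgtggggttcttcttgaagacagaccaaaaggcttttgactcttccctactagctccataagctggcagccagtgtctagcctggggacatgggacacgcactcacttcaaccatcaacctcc

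The Tex9, Nbas and Mef2c sequences each held a STAT6 palindrome together with a C/EBP match, Ttc27 held a STAT6 palindrome, and Ang5 held an AP-1 match and no STAT6 palindrome. The Ubb and Acta1 sequences held none of the 6 motifs. The central bases of 2 further regions chosen by the same rule, at the Mcf2l promoter and in Sirpa, overlapped annotated untranslated exons and are not shown. A match is a description of the letters and not evidence that a factor was bound.

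Values are normalized tags, the number of reads in the 1000 bp window scaled to a library of 10000000 tags. Library totals in the main table ran from 7796479 to 21973750 tags. The share of each library lying in all windows differed with the treatment, from 59.6 to 65.4% in the basal and from 38.2 to 43.2% in the 24 h H3K27ac libraries, from 37.1 to 37.2% and from 18.9 to 27.2% for H3K4me2, and 73.5% and from 59.2 to 63.04% for H3K4me3. The median log2 fold of all 67742 windows was -0.28 for H3K27ac, -0.66 for H3K4me2, -0.05 for Pol II and 0.12 for H3K4me3, and changes in the gained regions are read beside these values. Macrophage identity was checked at promoters, where all 6 macrophage marker genes (Csf1r, Adgre1, Cd68, Spi1, Mertk and Fcgr1) had a window open in basal cells. The windows of Csf1r, Cd68 and Fcgr1 were not in the 24 h peak set. Summed H3K27ac of the 6 genes was between 3315 and 3687 normalized tags in basal and between 1513 and 1721 in 24 h libraries. Mertk added little to it, with means of 9.3 basal and 15.5 at 24 h. An open promoter window was found for 1 of 4 T cell, 2 of 4 B cell, 1 of 4 neutrophil and 2 of 4 fibroblast markers, with none at Cd3e, Cd3g, Cd4, Cd79a, Pax5, Ly6g, Elane, Mpo, Col1a2 or Dcn. Summed H3K27ac of the T cell list, carried by Cd3d, was 131 to 151 basal and 53.2 to 89.1 at 24 h, that of the B cell list 86.2 to 95.6 and 31.4 to 57.8, that of the neutrophil list 19.3 to 55.6 and 39.4 to 40.7, and that of the fibroblast list 0.71 to 4.07 and 4.25 to 7.87, and the part of other cells in the results was not tested.

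The gained regions were, before and after IL-4, regions of low H3K27ac. Their median in the basal libraries was 3.39 and 3.57 normalized tags, and in the 24 h libraries it was 5.94 and 6.56. Both 24 h libraries lay above both basal ones, but a typical gained region stayed far under the regions open in both conditions, whose medians were 45.5 and 44.9 basal and 34.8 and 35.4 at 24 h. Basal-only regions had intermediate medians of 16.3 and 17.1 basal and 13.6 and 15.1 at 24 h. A small upward shift was also seen in windows of the other 2 classes that had no factor peak at 24 h. There, the median went from 4.22 to 5.60 in regions open in both conditions and from 3.19 to 4.56 in basal-only regions, while gained regions without a factor peak went from 1.40 to 2.99, and the difference between the classes was not tested.

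H3K4me2 was present at many gained regions in untreated cells, at a lower level than in the other classes. Its median in gained regions was 17.97 and 19.7 in basal and 18.6 and 14.6 in 24 h libraries, and the libraries of the 2 conditions overlapped. The basal medians were 59.6 and 57.7 in regions open in both conditions and 35.9 and 35.2 in basal-only regions. Pol II medians also overlapped, with 8.11, 7.22, 6.97 and 6.08 basal and 7.34, 7.28 and 7.70 at 24 h. H3K4me3 was scarce, with medians of 1.46 and 1.95 basal and 3.06 and 3.12 at 24 h. In all, 3323 gained regions (28.9%) had no mark at or above its minimum in either condition, the minimum being a group mean of 16 normalized tags for histone marks and 8 for Pol II. The corresponding share was 7.32% of regions open in both conditions and 17% of basal-only regions. A further 2518 gained regions passed the minimum for H3K4me2 but not for H3K27ac, as did 12899 of all 67742 windows.

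To ask which gained regions also gained activity marks, a fold rule was applied to each mark alone, which calls a region when the group means differ at least 2.5-fold and one of them reaches the minimum. The study asked for such a change in H3K27ac and Pol II together, and counts for both together are given further on. One tag was added to each mean, and the rule is not a test. For H3K27ac 4148 gained regions (36.03%) reached the minimum, and 529 (4.59% of all gained regions) were at least 2.5-fold higher at 24 h, against 3.46% of all windows. Another 347 (3.01%) were at least 2.5-fold lower, against 7.55% of all windows. Of the 529, 499 (94.3%) had both 24 h libraries above both basal ones, and of the 347, 328 (94.5%) had both below, close to the 94.1% and 94.3% of all windows past the rule. The median log2 fold over all gained regions was 0.31, against -0.42 in regions open in both conditions and -0.27 in basal-only regions. With median-ratio scaling in place of library totals these medians were 0.55 for gained regions and 0.03 for all windows, and the regions past the rule numbered 740 higher and 146 lower. Without 24 h replicate 1 the count of lower regions was 643 in place of 347.

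With 2 libraries per condition, limma on log2(normalized tags + 1) over all 67742 windows called no gained region for H3K27ac, the lowest adjusted p being 0.106, and no window of the table either (0%). At an unadjusted p under 0.05 there were 2308 gained regions (20.05%, against 22% of all windows), 1488 of them higher and 820 lower at 24 h, and without basal replicate 1 or 2 limma called 65 and 35 higher. The quasi-likelihood test of edgeR on the recovered reads called 44 gained regions higher and 1 lower, against 0.241% and 0.00886% of all windows, and DESeq2 called 356 and 46, against 2.16% and 0.909%. With the replicate number as a block, limma called 1488 gained regions higher and 1730 lower, against 8.47% and 29.6% of all windows. Since the tests differed this far, H3K27ac differences of single regions are given as values, with edgeR's adjusted p beside the largest.

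**Figure D1:**
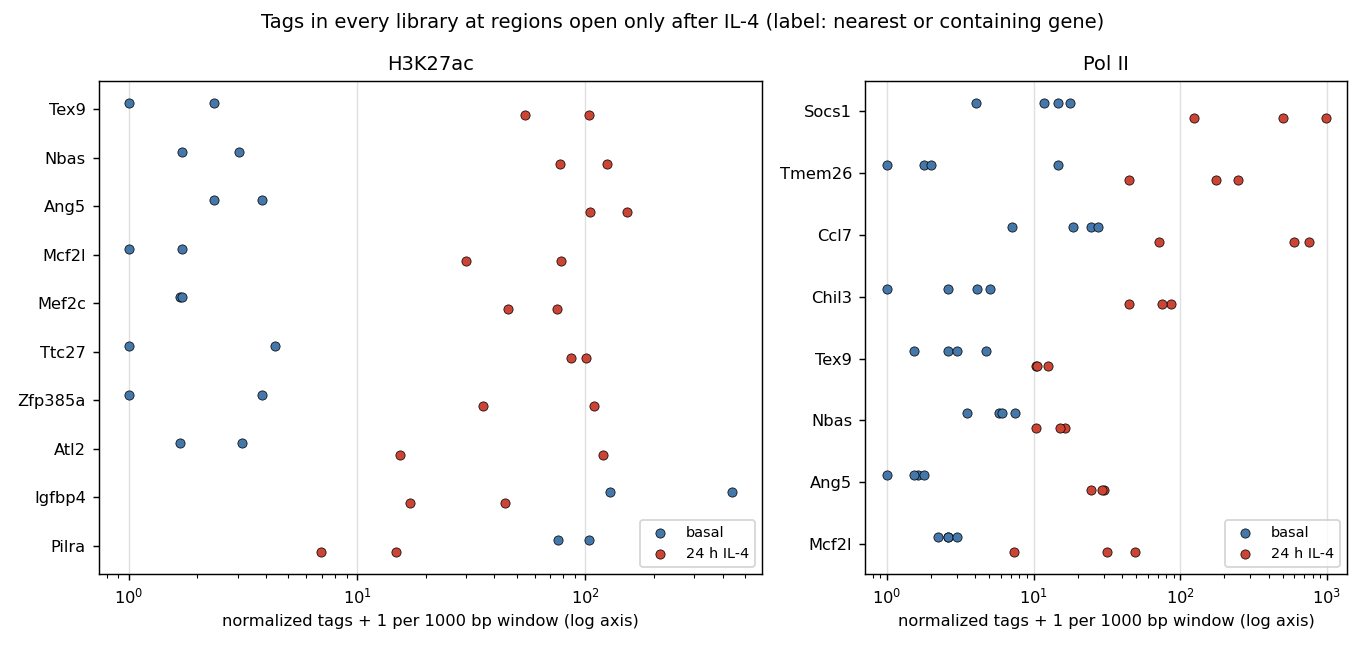
Normalized tags plus 1 (log axis) in every library at the named IL-4-gained regions, H3K27ac on the left and Pol II on the right, with basal libraries in blue and 24 h IL-4 libraries in red. At Tex9 the basal H3K27ac libraries held 1.36 and 0 tags and the 24 h libraries 53.5 and 103, while at Igfbp4 and Pilra both 24 h libraries lay under both basal ones.

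The largest gains of H3K27ac were in introns and between genes. In intron 4 of Tex9 (testis-expressed gene 9, chr9:72485132-72486132) H3K27ac was 1.36 and 0 in basal and 53.5 and 103 in 24 h libraries, 47.2-fold in the means plus 1 (edgeR adjusted p = 0.0388). The basal value rested on 2 reads against 220 at 24 h, a ratio of 117 with an exact 95% counting interval of 32.04 to 973. H3K4me2 rose in the same window from 0.82 and 0.70 to 27.9 and 13.2 (limma adjusted p = 2.13e-05), on 2 basal reads and 54 at 24 h, a ratio of 26.9 with an interval of 7.09 to 228.

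In intron 32 of Nbas, which encodes a protein of Golgi-to-ER transport (chr12:13409847-13410847), H3K27ac was 2.04 and 0.71 basal and 76.4 and 124 at 24 h, 42.6-fold in the means plus 1 (edgeR adjusted p = 0.0377). The nearest basal-open region was 51338 bp away. Between genes, 3555 bp from the start of Ang5, a member of the angiogenin ribonuclease family (chr14:43965538-43966538), H3K27ac was 1.36 and 2.85 basal and 104 and 152 at 24 h (41.4-fold, edgeR adjusted p = 0.0372). Pol II rose there from 0.62, 0.80, 0.54 and 0 to 29.4, 23.7 and 28.2 (limma log2 difference 4.26, adjusted p = 0.0036), with 3 basal reads against 118, a ratio of 50.1 (16.7 to 246).

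The promoter of Mcf2l, a guanine nucleotide exchange factor (chr8:12948887-12949887), was the one promoter among the 8 largest gains. Its H3K27ac was 0 and 0.71 basal and 77.2 and 28.9 at 24 h, 39.9-fold in the means plus 1 (edgeR adjusted p = 0.0393), and H3K4me3 was 0 and 0.49 basal and 44.6 and 35.1 at 24 h (32.8-fold, edgeR adjusted p = 0.00246). Each basal value rested on 1 read, with read ratios of 144 (25.4 to 5718) for H3K27ac and 138 (24.4 to 5516) for H3K4me3. Pol II rose from 1.25, 1.60, 1.61 and 2.03 to 48.0, 30.5 and 6.41 (limma adjusted p = 0.0393). All 4 marks thus lay higher in every 24 h library than in any basal one.

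A region 479863 bp from the start of Mef2c, a transcription factor gene (chr13:83023671-83024671), had H3K27ac of 0.68 and 0.71 basal and 44.99 and 74.2 at 24 h (35.7-fold), on 2 basal reads, with a read ratio of 88.4 (24.1 to 736). In intron 3 of Ttc27 (chr17:74722823-74723823) the values were 3.39 and 0 basal and 85.7 and 99.8 at 24 h (34.8-fold), and Pol II rose from 4.37, 3.21, 2.68 and 0 to 33.4, 39.6 and 16.7 (limma adjusted p = 0.0308). Their edgeR adjusted p for H3K27ac was 0.0377 and 0.0495. At Tex9, Nbas, Ang5, Mcf2l, Mef2c and Ttc27 a STAT6 and a PPARγ peak were listed at 24 h, and no basal peak of any of the 5 factors. Tex9 and Nbas lay under 24 h peaks of all 5.

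The other two of the 8 largest gains differed in this. Intron 3 of Zfp385a, a zinc finger gene (chr15:103317751-103318751), had H3K27ac of 0 and 2.85 basal and 34.8 and 108 at 24 h (29.9-fold), with no peak of any factor, no matching region in another strain, and a basal-open region 845 bp away. Between genes, 54123 bp from the start of Atl2, an ER-shaping GTPase (chr17:79798132-79799132), H3K27ac was 0.68 and 2.14 basal and 14.4 and 118 at 24 h. That 27.9-fold difference rested on 1 library, since without 24 h replicate 2 the log2 fold was 2.68 in place of 4.80. It had a basal EGR2 peak, and EGR2, STAT6, PPARγ and C/EBPβ peaks at 24 h. Neither passed the edgeR test, with adjusted p of 0.0755 and 0.0912.

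Some regions that were open only after IL-4 carried less of the active marks at 24 h. In exon 1 of Igfbp4, an insulin-like growth factor binding protein (chr11:99041008-99042008), H3K27ac was 127 and 439 basal and 16.1 and 43.3 at 24 h, 9.23-fold lower in the means plus 1 (edgeR adjusted p = 0.136). Pol II fell there from 76.1, 76.2, 150 and 103 to 13.3, 30.95 and 32.1 (limma adjusted p = 0.0439). In intron 2 of Pilra, an inhibitory immunoglobulin-like receptor (chr5:137831273-137832273), H3K27ac was 74.6 and 103 basal and 5.94 and 13.8 at 24 h (8.26-fold lower, edgeR adjusted p = 0.108), and Pol II fell from 31.2, 17.7, 28.9 and 25.3 to 1.33, 0.46 and 3.85 (limma adjusted p = 0.0105). Basal-open regions lay 440 bp and 453 bp from the Igfbp4 and Pilra centres, so that the windows overlapped them.

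Pol II rose at 47 gained regions (0.223% of all windows were called higher) and fell at 6 (0.0960% lower), and with the replicate number as a block these counts were 73 and 23, against 0.415% and 0.394% of all windows. edgeR called 73 higher and 6 lower, against 0.427% and 0.115%, and DESeq2 176 and 34, against 0.995% and 0.627%. By the fold rule 274 regions (2.38%, against 1.57% of all windows) were higher and 96 (0.834%, against 1.66%) lower. The count of rises was 0 without 24 h replicate 1 or 2, and was 112, 20, 12 and 6 when basal replicates 1, 2, 3 and 4 were left out in turn. In 546 gained regions (4.74%) every 24 h library lay above every basal one, against 3.30% of all windows, and in 420 (3.65%) below, against 5.29%. Of the 47, 24 were intergenic and 15 intronic, 35 were also at least 2.5-fold higher in H3K27ac, and 33 had a STAT6 peak at 24 h, 29 of them without a basal one. Their median H3K27ac was 4.86 basal and 87.6 at 24 h.

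The largest Pol II gains lay at or near Socs1, Tmem26, Ccl7 and Chil3. At 4315 bp from the start of Socs1, which encodes a feedback inhibitor of JAK-STAT signalling (chr16:10780721-10781721), Pol II rose from 16.9, 13.6, 10.7 and 3.04 to 502, 976 and 123 (44.3-fold in the means plus 1, limma log2 difference 5.22 ± 0.60 SE, adjusted p = 0.0036). In intron 1 of Tmem26, which encodes a membrane protein (chr10:68725187-68726187), it rose from 13.7, 0.80, 0 and 1.01 to 245, 175 and 43.6 (31.8-fold, adjusted p = 0.0079), and H3K27ac was 0.68 and 3.57 basal and 104 and 47.3 at 24 h (edgeR adjusted p = 0.0497). At Socs1 H3K27ac was 0.68 and 0 basal, which is 1 read, and 33.1 and 16.4 at 24 h, a read ratio of 68.1 (11.8 to 2733). At the 3′ end of Ccl7, a monocyte chemokine (chr11:82047664-82048664), Pol II rose from 23.7, 26.5, 17.7 and 6.08 to 600, 749 and 70.5 (24.3-fold, adjusted p = 0.0137), while the H3K27ac libraries overlapped (4.75 and 12.8 basal, 67.1 and 9.84 at 24 h).

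Chil3, the gene of the chitinase-like protein Ym1, had a gained region 5436 bp from its start (chr3:106143825-106144825) in which Pol II rose from 3.12, 1.60, 0 and 4.05 to 85.4, 74.2 and 43.6 (21.5-fold, limma adjusted p = 0.00396). H3K27ac there was 1.36 and 0 basal and 5.09 and 3.94 at 24 h, under the minimum of 16, and no factor peak was listed. In each of these 4 regions every 24 h Pol II library lay above every basal one. Regions of Pim1, a kinase gene, of Cish, another feedback inhibitor of cytokine signalling, of Flt1, a VEGF receptor, and of Batf3, an AP-1 family gene, were also among the 47. The 6 falls were at Pilra, Hecw2, Icosl, Igfbp4, E230025N22Rik and Fbxo11, and all 6 were at least 2.5-fold lower in H3K27ac, whose medians there were 293 basal and 38.3 at 24 h.

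H3K4me2 rose at 74 gained regions under limma (0.179% of all windows were called higher) and fell at 6 (0.0576% lower). With the replicate block limma called 139 higher and 17 lower, against 0.368% and 0.187% of all windows. edgeR called 134 higher and 1 lower, against 0.492% and 0.0118% of all windows, and DESeq2 82 and 1, against 0.289% and 0.00443%. Both 24 h libraries lay above both basal ones in 1913 gained regions (16.6%, against 6.83% of all windows) and below in 5025 (43.6%, against 61.0%). By the fold rule 116 (1.01%, against 0.387% of all windows) were higher and 131 (1.14%, against 1.27%) lower, the median log2 fold over gained regions being -0.37. Under median-ratio scaling this median turned to 0.26, while that of all windows was -0.01, and 437 regions were higher and 2 lower. The fold-rule count of lower regions was 1311 with 24 h replicate 1 left out and 587 with basal replicate 1 left out, and that of higher ones 201 without 24 h replicate 2. The limma count depended on single libraries, since it was 0 and 0 without 24 h replicate 2, 306 higher and 3597 lower without 24 h replicate 1, and 25 and 0 without basal replicate 1. The 74 included 4 windows of the mitochondrial chromosome, as well as windows beside Gm10800 and Gm21738. Of the 74, 55 had a STAT6 peak at 24 h, 51 of them without a basal one, 41 had an EGR2 peak, and 52 were at least 2.5-fold higher in H3K27ac, with medians of 1.72 basal and 26.5 at 24 h.

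The largest H3K4me2 gains were in intron 16 of Mark1, a microtubule-affinity kinase (chr1:184903740-184904740), and in the 3′ UTR of Pex26, a peroxisome assembly gene (chr6:121194208-121195208). At Mark1 no H3K4me2 or H3K27ac read was found in either basal library, and the 24 h libraries held 23.2 and 8.78 tags of H3K4me2 and 37.4 and 11.8 of H3K27ac. Against a floor of 3 reads over the basal group H3K4me2 was at least 13.9-fold and H3K27ac at least 22-fold higher (limma adjusted p for H3K4me2 = 1.04e-05). At Pex26 H3K4me2 rose from 0.82 and 2.82 to 40.3 and 29.3 (12.7-fold in the means plus 1, limma adjusted p = 9.93e-08). The 6 falls were at Rnf19b, Dusp4, Cpeb4, Klf4, Rhob and Baiap2, and the median H3K27ac of these 6 was 141 basal and 196 at 24 h.

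H3K4me3 was called at no gained region by limma, with 2093 (18.2%, against 19.5% of all windows) at an unadjusted p under 0.05, and in no window of the table (0%), while edgeR called 28 higher and 6 lower, against 0.131% and 0.0531% of all windows, and DESeq2 35 and 19, against 0.211% and 0.205%. By the fold rule 101 (0.877%, against 0.639% of all windows) were higher and 12 (0.104%, against 0.179%) lower, the first being 347 without basal replicate 2 and 166 without 24 h replicate 1, and the second 26 without basal replicate 1, 24 without 24 h replicate 1 and 53 without 24 h replicate 2. With the replicate block limma called 596 gained regions higher and 1129 lower, against 3.96% and 13.1% of all windows. In exon 4 of Itgax, the CD11c integrin gene (chr7:128130750-128131750), H3K4me3 was 1.46 and 1.95 basal and 38.5 and 78.8 at 24 h (22.1-fold, edgeR adjusted p = 0.00325). H3K4me2 rose in the same window from 8.98 and 8.45 to 51.1 and 53.4 (limma adjusted p = 0.000907).

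The marks moved together in part. Of the 529 regions at least 2.5-fold higher in H3K27ac, 161 were also higher in Pol II and none lower, so that 161 of all gained regions (1.40%, against 0.936% of all windows) passed both rules upwards, 51 passed both downwards (1.14% of all windows did), and 1 passed them in opposite directions. Of the 116 regions higher in H3K4me2, 95 were also higher in H3K27ac, and of the 101 higher in H3K4me3, 50 were. The reverse shares were smaller, since 95 and 50 of the 529 regions were higher in H3K4me2 and H3K4me3. In 250 of the 529 the basal mean of H3K4me2 was at or above 16 normalized tags. This was a smaller share than among all windows higher in H3K27ac (1512 of 2344) or those open in both conditions (883 of 1277).

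Of the 3 gained regions with the highest H3K27ac at 24 h, 1 was higher than in basal cells. The window beside Gm10800 (chr2:98666644-98667644) held 9701 and 6139 tags basal and 37377 and 35735 at 24 h (4.62-fold, edgeR adjusted p = 0.0162). Every library of every mark held between 6138 and 51560 tags there. The matching window was open in both conditions in BALB/cJ, NOD/ShiLtJ, PWK/PhJ and SPRET/EiJ. Its H3K27ac libraries overlapped in BALB/cJ and SPRET/EiJ, while both 24 h libraries lay above both basal ones in NOD/ShiLtJ and PWK/PhJ. In intron 1 of Gpnmb, a lysosomal glycoprotein gene (chr6:49036951-49037951), H3K27ac was 1980 and 1108 basal and 1278 and 662 at 24 h. Between genes near Plxna1, a semaphorin receptor gene (chr6:89257109-89258109), it was 1259 and 1031 basal and 997 and 798 at 24 h. Leaving out the Gm10800 window and the 4 mitochondrial windows, an alternative chosen after seeing the data, left 524 higher and 347 lower regions for H3K27ac. It left 112 and 131 for H3K4me2, 96 and 12 for H3K4me3, and 273 and 96 for Pol II.

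Many gained regions lay close to chromatin that was already open. The median distance from a gained region to the nearest basal-open region was 3677 bp, and 2990 (25.97%) lay within 1000 bp, where the 2 windows overlap, while 3316 (28.8%) were more than 10 kb away. Within 1000 bp the median H3K27ac was 58.8 basal and 47.6 at 24 h, and 222 regions were at least 2.5-fold lower and 142 higher. From 2 to 5 kb it was 2.82 and 5.37, with 39 lower and 110 higher, and beyond 50 kb it was 0.715 and 2.38, with 4 lower and 14 higher. H3K4me2 had its highest basal median, 69.8, within 1000 bp, and medians between 7.93 and 9.83 beyond 2 kb.

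**Figure D2:**
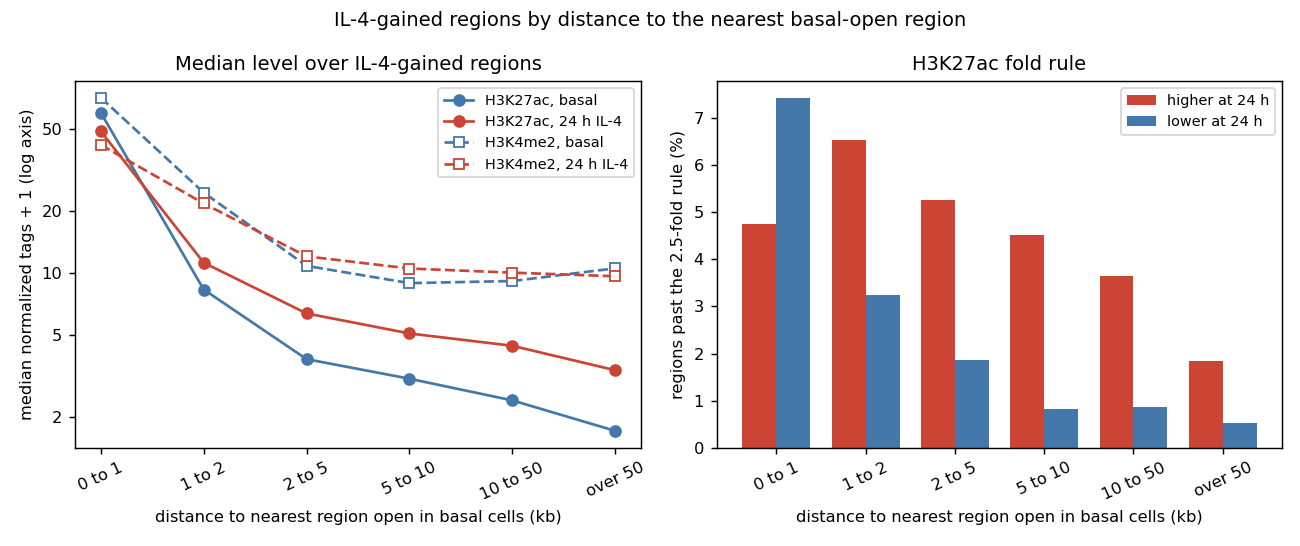
IL-4-gained regions binned by the distance of their centre to the nearest region open in basal cells, with the median normalized tags plus 1 of H3K27ac and H3K4me2 on the left (log axis) and the percentage past the 2.5-fold H3K27ac rule on the right. Within 1 kb more regions were lower (7.42%) than higher (4.75%) at 24 h, and in every bin beyond 1 kb more were higher than lower.

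Without the regions that had a basal-open region within 1000 bp, an alternative chosen after seeing the data, 8523 gained regions remained, of which 387 (4.54%) were higher and 125 (1.47%) lower in H3K27ac. The rises were shared with neighbouring chromatin in part. Of 235 regions that were higher in H3K27ac and had a basal-open region within 2 kb, 159 had a nearest such region that was also at least 2.5-fold higher, and none had one that was lower. Windows less than 1 kb apart share reads, so these are not independent observations.

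The gained regions lay mostly outside promoters. Introns held 42.7% of them, intergenic stretches 27.6%, promoters 14.1%, exons 9.22%, gene ends 2.43%, 5′ UTRs 1.70% and 3′ UTRs 1.53%. Promoters were a smaller share than among regions open in both conditions (25.5%) and a larger one than among basal-only regions (6.71%), and exons a larger share than in either (2.25% and 1.73%). The median distance to the nearest start of a protein-coding gene was 4904 bp, against 4402 and 9888 bp. Median GC content of the central 200 bases was 56.5%, against 54.5% and 47.0%.

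The parts of the genome differed in how often H3K27ac was gained. The rule was passed upwards by 6.48% of intergenic and 5.39% of intronic gained regions, and by 1.04% of those at promoters and 1.32% of those in exons, against 4.72%, 3.84%, 0.763% and 1.58% of all windows of each annotation. Gained regions in exons had a median H3K27ac of 1.41 basal and 2.92 at 24 h and a GC content of 63.5%. Gained regions at promoters had medians of 32.7 and 25.5 and a GC content of 67.0%. The 529 regions higher in H3K27ac had a GC content of 51.5%.

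In all, 5453 genes had at least 1 gained region annotated to them, and 259 of these had one that was at least 2.5-fold higher in H3K27ac. Sfi1, a centrosome gene, had the most gained regions, 20 of 70 windows, 6 of them higher. Creb5, a CREB family gene, had 5 of 7 higher, Ksr2, a kinase scaffold of the RAS pathway, had 4 of 5, and Flt1 had 3 of 5. Gained regions made up between 14.2% (chr13) and 19.8% (chr5) of the windows of each autosome and 16.1% on chrX.

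Peaks of STAT6, PPARγ, PU.1 and C/EBPβ at 24 h covered gained regions less often than both other classes, while EGR2 peaks covered them more often than basal-only regions over the 1000 bp window. Over the central 200 bp the EGR2 shares at 24 h were close, at 18.97% of gained and 18.3% of basal-only regions. At 24 h PU.1 peaks lay over 38.3% of gained regions, against 75.9% of regions open in both conditions and 68.0% of basal-only regions. EGR2 peaks lay over 26.9% (exact 95% binomial interval 26.1 to 27.7%, counting error only), against 51.6% and 22.5%, and STAT6 peaks over 20.6%, against 56.5% and 44.0%. PPARγ peaks covered 21.5% and C/EBPβ peaks 17.8%. Each list holds the reproducible peaks of 1 condition, so these shares have no replicate.

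Of the gained regions with a 24 h peak, 70.9% had no basal one for EGR2, 84.7% for PPARγ, 60.7% for C/EBPβ, 53.3% for STAT6 and 22.2% for PU.1, against 67.5%, 79.4%, 46.04%, 30.9% and 10.8% of all windows with one. A 24 h EGR2 peak without a basal one was found at 19.1%, a PPARγ peak at 18.2%, a STAT6 peak at 11%, a C/EBPβ peak at 10.8% and a PU.1 peak at 8.49% of gained regions, against 25.96%, 31.3%, 14.4%, 18.6% and 7.22% of all windows. In basal cells EGR2 peaks covered 8.23%, PPARγ 3.78%, C/EBPβ 7.48%, STAT6 13.6% and PU.1 33.6%. Of the gained regions, 947 were first under an EGR2 peak in the basal list, 538 in the 1 h list, 240 in the 6 h list and 1510 in the 24 h list, and 8278 were in none. For STAT6 the first lists were basal for 1571, 1 h for 569, 6 h for 169 and 24 h for 748, with 8456 in none. The lists differ in length, from 8437 EGR2 peaks in basal cells to 29407 at 24 h.

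**Figure D3:**
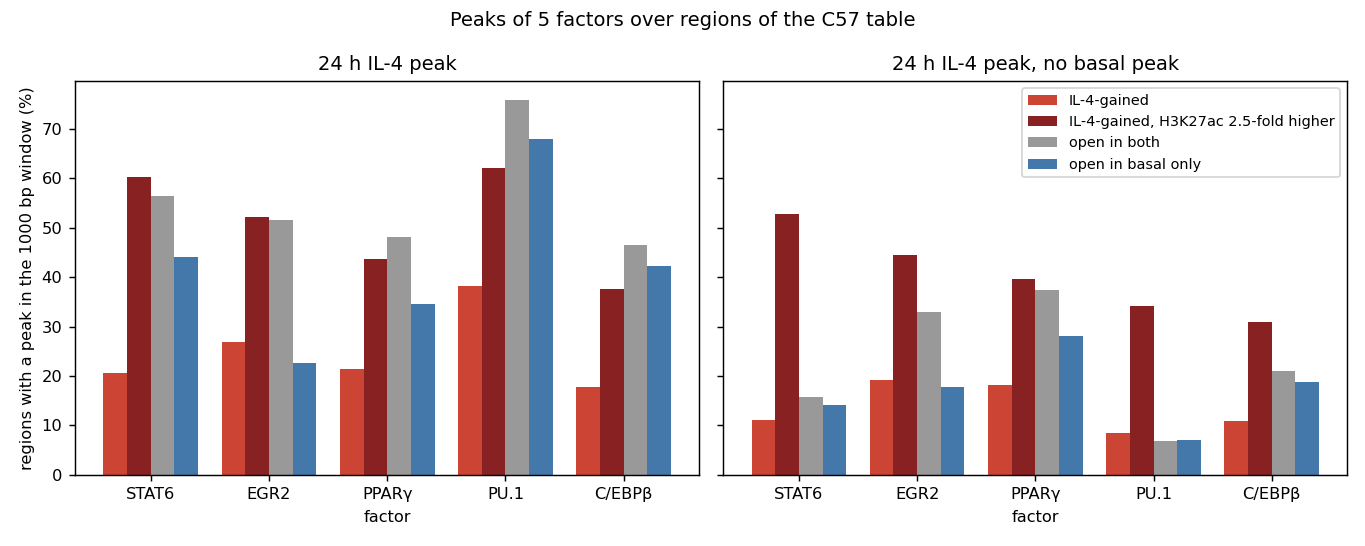
Percentage of regions whose 1000 bp window holds a 24 h IL-4 peak of each factor (left) and a 24 h peak without a basal peak (right), for IL-4-gained regions, the 529 of them at least 2.5-fold higher in H3K27ac, regions open in both conditions and basal-only regions. STAT6 peaks lay over 20.6% of gained regions and 60.3% of those higher in H3K27ac, and 52.7% of the latter had a STAT6 peak at 24 h only.

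Factor peaks were more frequent at the 529 gained regions higher in H3K27ac than at gained regions as a whole. Compared with the 2344 windows of any class that were higher in H3K27ac, they were less often under many factors. All 5 were listed at 24 h over 57 of the 529 and none over 64, against 563 and 133 of the 2344. Among the 529 higher regions STAT6 peaks at 24 h covered 60.3%, PU.1 62.2%, EGR2 52.2%, PPARγ 43.7% and C/EBPβ 37.6%, and peaks without a basal one covered 52.7% for STAT6, 44.4% for EGR2 and 34.2% for PU.1. Among the 347 lower regions a 24 h STAT6 peak without a basal one was found at 9.22% and a PU.1 peak at 2.88%, while basal PU.1 peaks covered 78.1%. No factor was listed at 24 h over 5026 gained regions (43.7%, against 8.74% of regions open in both conditions and 17.5% of basal-only regions), and all 5 were listed over 436 (3.79%, against 16.7% and 7.26%).

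The share at least 2.5-fold higher in H3K27ac was 1.27% with no factor at 24 h, 3.17% with 1, 6.10% with 2, 11.8% with 3, 12.6% with 4 and 13.1% with all 5. In regions open in both conditions the same shares were 1.42% with none and 6.76% with all 5. Gained regions without a factor had a median H3K27ac of 2.99 at 24 h, under the minimum of 16 that the rule asks for. Regions lower by the rule numbered 52 of 5026 with none, 63 of 2622 with 1 and 83 of 1509 with 2. They numbered 73 of 1100 with 3, 58 of 820 with 4 and 18 of 436 with all 5. The median log2 fold of gained regions went the other way, from 0.52 with none to -0.36 with all 5. The regions under all 5 factors were high before IL-4, with a median H3K27ac of 129 basal and 102 at 24 h. The 3 with the highest 24 h values were all lower in both 24 h libraries than in either basal one. In the 5′ UTR of Sirpa, an inhibitory receptor of macrophages (chr2:129592934-129593934), H3K27ac was 2014 and 1316 basal and 1025 and 547 at 24 h. At the promoter of Ubb, a ubiquitin gene (chr11:62549951-62550951), it was 1545 and 1072 and then 823 and 583, and 10338 bp from the start of Acta1 (chr8:123883913-123884913) it was 1140 and 1039 and then 713 and 610. These 3 differences did not pass limma, with adjusted p of 0.168, 0.175 and 0.180, or edgeR, with 0.268, 0.323 and 0.442.

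Tags of EGR2 in the time-course libraries could be compared at 3006 EGR2 peaks inside gained regions. Their library medians were 18.7 and 26.9 basal, 9.94 and 24.1 at 1 h, 22.7 and 35.7 at 6 h, and 44.0 and 33.6 at 24 h. Both 24 h libraries were above both basal ones, and the 1 h and 6 h libraries overlapped them. At 526 peaks (17.5%, against 10.9% of all EGR2 peaks) both 24 h libraries lay above both basal ones with a 2.5-fold difference of the means.

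The STAT6 palindrome was found in the central 200 bases of 4.72% of gained regions, close to its share in all windows (4.73%), and in 19.1% of the 529 regions higher in H3K27ac. The AP-1 motif was in 14.2% of gained regions (16.9% of all windows) and in 22.1% of those higher. The C/EBP motif was in 6.34% of gained regions, against 11.9% of all windows, and in 10.4% of those higher. The PU.1 core was in 10.1%, against 15.7%, and in 9.07% of those higher, and the EGR core in 4.86%, against 4.05%, and in 4.35%. The DR1 element was in 8 gained regions (0.0695%, against 0.0399% of all windows).

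Motifs and peaks of the same factor were found together. The STAT6 palindrome was in 11.5% of gained regions with a 24 h STAT6 peak and in 2.97% of those without, the EGR core in 10.1% and 2.95% by EGR2 peak, the PU.1 core in 18.97% and 4.66% by PU.1 peak, and the C/EBP motif in 13.2% and 4.85% by C/EBPβ peak. The Tex9, Nbas and Ttc27 sequences printed above hold a STAT6 palindrome and lie in windows with STAT6 peaks at 1, 6 and 24 h. The Mef2c sequence holds one and lies in a window with STAT6 peaks at 6 and 24 h.

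In the time-course table, which merges the basal, 1 h, 6 h and 24 h peak sets, each of the 11513 gained regions had a window centred within 500 bp, and 11130 separate windows were open at 24 h and not in basal cells. Of these 2132 were also open at 1 and 6 h, 1422 at 1 h, 1540 at 6 h, and 6036 (54.2%) at 24 h alone. Another 382 gained regions (3.32%) matched a window that names the basal set. The median H3K27ac of the 11130 windows was 3.48 basal, 4.39 at 1 h, 5.21 at 6 h and 6.27 at 24 h, that of Pol II 7.17, 6.09, 7.37 and 7.26. In windows open at all 3 times H3K27ac was 8.03, 8.70, 13.2 and 13.8, and in those open at 24 h alone 2.11, 3.27, 3.45 and 4.33.

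All times were compared with the same 2 basal libraries, so the comparisons are not independent of each other. With the 8 H3K27ac libraries in 1 limma fit, 193 of the windows rose at 1 h (1.37% of all 77955 windows were called higher), 397 at 6 h (2.67%) and 217 at 24 h (1.13%), and 445 fell at 1 h (8.36%), 107 at 6 h (2.46%) and 15 at 24 h (0.327%). By the fold rule 191, 616 and 514 of the 11130 windows were higher at 1, 6 and 24 h, against 2.31%, 5.59% and 3.77% of all windows. The share was below that of all windows at 1 h, close to it at 6 h and above it at 24 h. Lower were 1120, 394 and 314, against 20.6%, 8.63% and 7.09%. Among the 6036 windows open at 24 h alone 217 were at least 2.5-fold higher in H3K27ac at 6 h and 179 at 24 h. Both were smaller shares than those of all windows. Of the 616 windows higher at 6 h, 312 were not in the 6 h peak set. The limma counts moved with single libraries. Rises at 1 h numbered 121 and 16 without basal replicate 1 and 2 and 48 without either 6 h replicate, those at 6 h 183 without basal replicate 2 and 45 and 36 without 6 h replicate 1 and 2, and those at 24 h 143 and 93 without 24 h replicate 1 and 2, 114 without either 6 h replicate, and 367 and 357 without 1 h replicate 1 and 2. Falls ranged from 11 to 1674 at 1 h (the highest without 1 h replicate 1, the lowest without basal replicate 2), from 6 to 221 at 6 h (without 6 h and 1 h replicate 1), and from 1 to 160 at 24 h (without basal replicate 2 and 1 h replicate 1).

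Single regions followed different courses. In exon 2 of Socs1 (chr16:10783867-10784867) H3K27ac was 12.2 and 3.57 basal, 328 and 122 at 1 h, 311 and 262 at 6 h, and 211 and 120 at 24 h. At Ttc27 it was 3.39 and 0 basal, 28.6 and 9.98 at 1 h, 86.3 and 153 at 6 h, and 86.6 and 99.8 at 24 h. At Tex9 it was 1.36 and 0 basal, 9.28 and 2.41 at 1 h, 40.04 and 73.6 at 6 h, and 51.8 and 100.4 at 24 h, and at Nbas 2.04 and 0.71, 10.1 and 11.4, 35.4 and 31.04, and 76.4 and 122. At Nbas both 24 h libraries lay above all earlier ones, while at Socs1 both 6 h libraries lay above both 24 h ones.

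Of 64 genes chosen for their response to IL-4, 29 had a gained region, with 42 gained regions among their 213 windows (19.7%). Of the 42, 12 were at least 2.5-fold higher in H3K27ac and 1, at Il4ra, was lower, 15 were higher and none lower in Pol II (1.57% and 1.66% of all windows), 3 were higher and 5 lower in H3K4me2 (0.387% and 1.27%), and 8 were higher and none lower in H3K4me3 (0.639% and 0.179%). The 12 belonged to 10 genes, namely Ccl7, Cdh1, Cish, Flt1, Irf4, Itgax, Ocstamp, Olfm1, Socs1 and Tmem26. The list was put together with results of these data known and is no independent evidence of a direction.

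The difference of H3K27ac at 24 h in exon 2 of Socs1 was 18.7-fold in the means plus 1 (edgeR adjusted p = 0.0388), and Pol II rose from 11.9, 22.5, 12.9 and 13.2 to 189, 516 and 65.4 (limma adjusted p = 0.0105). In the 5′ UTR of Flt1 (chr5:147725237-147726237) H3K27ac was 5.43 and 4.28 basal and 73.9 and 55.1 at 24 h (11.2-fold, edgeR adjusted p = 0.0426), and Pol II rose from 2.5, 12.8, 1.07 and 2.03 to 56.7, 52.8 and 55.2 (limma adjusted p = 0.0109). In an intron of Cdh1, the E-cadherin gene (chr8:106610751-106611751), H3K27ac was 26.5 and 49.9 basal and 89.1 and 165 at 24 h (3.26-fold, edgeR adjusted p = 0.149).

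Other gained regions of the list were high in both conditions. At the promoter of Igf1, a growth factor gene (chr10:87859750-87860750), H3K27ac was 748 and 695 basal and 748 and 538 at 24 h. At the promoter of Pparg (chr6:115361320-115362320) it was 82.8 and 229 basal and 239 and 200 at 24 h, and in an intron of Cd274, the PD-L1 gene (chr19:29369695-29370695), 122 and 24.96 basal and 199.5 and 57.8 at 24 h. Those libraries overlapped, as they did for Clec10a, a C-type lectin gene (55.0 and 123, then 88.3 and 95.2), and Myc (38.7 and 84.9, then 68.8 and 89.9). Klf4, a Krüppel-like factor gene, had H3K27ac of 23.8 and 34.9 basal and 68.8 and 71.5 at 24 h, while H3K4me2 fell there from 173 and 223 to 72.8 and 47.6 (limma adjusted p = 0.014).

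Of 42 inflammatory genes 7 had a gained region, 8 in all among 91 windows (8.79%), and none passed the fold rule in any mark in either direction. In Nfkbia, the inhibitor of NF-κB, H3K27ac was 486 and 164 basal and 308 and 69.6 at 24 h, in Tnf it was 462 and 245 basal and 188 and 156 at 24 h, and at the promoter of Ptgs2, the cyclooxygenase 2 gene, it was 6.78 and 12.8 basal and 22.1 and 17.7 at 24 h. Of 33 genes of the macrophage lineage 22 had a gained region, 38 in all among 195 windows (19.5%). One of these, at Atf3, was at least 2.5-fold higher in H3K27ac, and 5, at Cebpd, Fos, Lyz2 and Maf, were lower. In intron 2 of Csf1r, the receptor of macrophage colony-stimulating factor, H3K27ac was 1129 and 1023 basal and 704 and 520 at 24 h, at the promoter of Bhlhe40 985 and 391 and then 708 and 413, and in intron 2 of Runx1 701 and 749 and then 491 and 506. Over all windows 3.46% were higher and 7.55% lower.

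The other 4 strains were used as samples that the choice of regions did not use. Of the gained C57 regions 32.5% had a window centred within 500 bp in BALB/cJ, 44.3% in NOD/ShiLtJ, 41.5% in PWK/PhJ and 34.9% in SPRET/EiJ, against 77.1 to 90.4% of regions open in both conditions. The matching window was open only after IL-4 for 1305 (11.3%) in BALB/cJ, 1276 (11.1%) in NOD/ShiLtJ, 1758 (15.3%) in PWK/PhJ and 1329 (11.5%) in SPRET/EiJ. Over all C57 windows these shares were 12.3%, 7.00%, 9.48% and 11.4%. All windows were matched more often, at 67.5%, 76.3%, 68.8% and 59.9%. Among matched windows alone, 1305 of 3738 gained regions were open only after IL-4 in BALB/cJ, against 8340 of 45701 overall matched windows. The counts were 1276 of 5100 against 4745 of 51662 in NOD/ShiLtJ and 1758 of 4780 against 6425 of 46574 in PWK/PhJ. In SPRET/EiJ they were 1329 of 4021 against 7731 of 40574. In each strain the share among matched windows was higher for gained regions. The matching window of a gained region was open in both conditions for 15.2%, 20.5%, 17.9% and 15.6%, and in basal cells only for 5.93%, 12.7%, 8.39% and 7.79%. Over all 4 strains 7535 regions (65.4%) were gained in none, 2689 in 1, 948 in 2, 281 in 3 and 60 in all 4, and 4262 (37.02%) had no matching window in any of them.

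**Figure D4:**
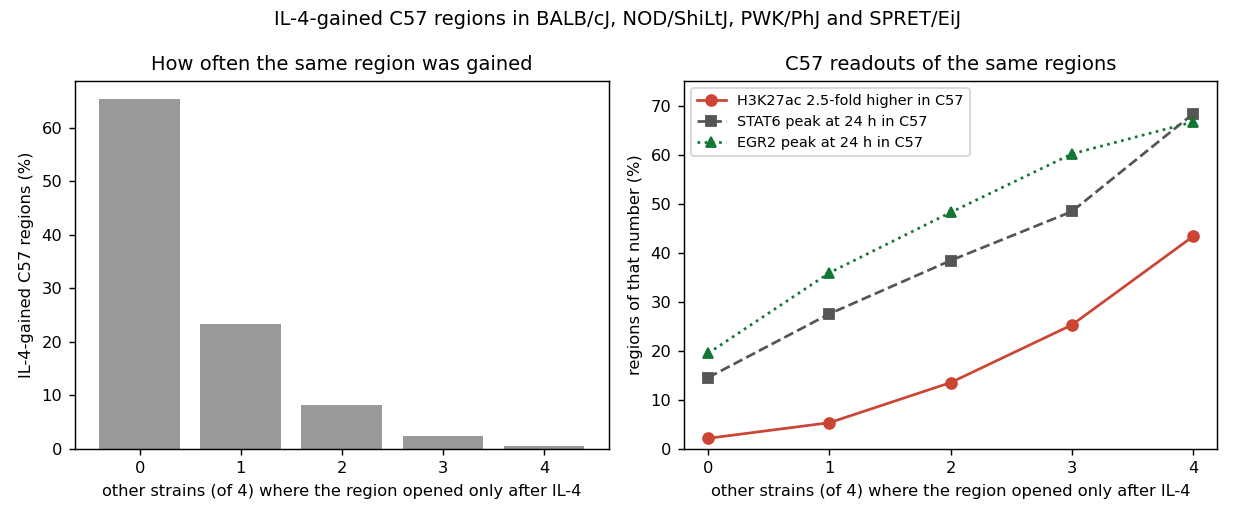
IL-4-gained C57 regions by the number of the 4 other strains in which the matching region was also open only after IL-4, as a percentage of all gained regions (left), and the percentage of each set that was at least 2.5-fold higher in H3K27ac or under a STAT6 or EGR2 peak at 24 h in C57 cells (right). The H3K27ac share went from 2.14% with none to 43.3% with all 4, the last resting on 60 regions.

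H3K27ac in C57 cells went with this sharing. It was at least 2.5-fold higher at 2.14% of the regions gained in no other strain, 5.32% in 1, 13.5% in 2, 25.3% in 3 and 43.3% in all 4. STAT6 peaks at 24 h in C57 cells covered 14.5% of the first and 68.3% of the last, and EGR2 peaks 19.5% and 66.7%. Within the strains' own tables, tested separately, limma called H3K27ac higher at 142 of the 3697 matched BALB/cJ windows (1.60% of its table), 9 of 5055 in NOD/ShiLtJ (0.0566%), 69 of 4744 in PWK/PhJ (0.487%) and 67 of 3983 in SPRET/EiJ (0.994%), and lower at 10 (0.653%), 0 (0%), 1 (0.0482%) and 4 (0.192%). By the fold rule 196, 328, 322 and 148 were higher, against 2.84%, 3.24%, 3.10% and 2.64% of each table, and 106, 122, 66 and 28 lower, against 5.13%, 5.14%, 3.01% and 0.939%. The BALB/cJ count of 196 was 301 under median-ratio scaling, and the SPRET/EiJ count of 148 was 247 without its basal replicate 2.

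The Nbas region was gained in all 4 strains. Its H3K27ac was 8.08 and 1.19 basal and 135 and 71.9 at 24 h in BALB/cJ, 2.49 and 0.79 and then 124 and 108 in NOD/ShiLtJ, 0 and 0 and then 86.9 and 111 in PWK/PhJ, and 4.27 and 19.1 and then 480 and 200.3 in SPRET/EiJ. The Tex9 region was gained in 3, with 0 and 1.19 and then 67.0 and 38.6 in BALB/cJ, 2.49 and 3.97 and then 60.8 and 68.7 in NOD/ShiLtJ, and 3.43 and 0 and then 63.3 and 115 in PWK/PhJ. In each of these strains both 24 h libraries lay above both basal ones. The region beside Socs1 was likewise gained in all 4, while those of Zfp385a and Chil3 matched no window in any of them.

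To ask whether EGR2 bears on the gained regions, H3K27ac and factor tags were compared between Egr2 fl/fl and LyzM-Cre Egr2 fl/fl BMDMs. These files cover 4677 sites where EGR2 binding was gained at 24 h in C57 cells, of which 604 lay inside a gained region, 1 in each of 604 regions. The median H3K27ac of these sites was 7.67 and 6.11 in basal and 24.1 and 22.8 in 24 h Egr2 fl/fl libraries, and 5.01 and 5.04 and then 7.27 and 7.55 in LyzM-Cre Egr2 fl/fl libraries. The 24 h medians of the LyzM-Cre Egr2 fl/fl libraries thus lay under those of the Egr2 fl/fl libraries and between the 2 basal ones of that genotype. Over all 4677 sites the 24 h medians were 30.2 and 30.2 in Egr2 fl/fl and 16.6 and 16.8 in LyzM-Cre Egr2 fl/fl libraries.

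At 24 h, limma called H3K27ac lower in LyzM-Cre Egr2 fl/fl cells at 213 of the 604 sites (23.2% of all sites were called lower) and higher at 2 (1.41%). The median log2 difference was -0.91, against -0.50 over all sites. Under the TMM scaling of edgeR the median of all sites was -0.03 and that of the 604 sites -0.47, and 130 were lower and 37 higher. The share of all sites called by edgeR was not counted, here or for the other targets below. Its counts therefore cannot be set against EGR2 sites in general. IL-4 in Egr2 fl/fl cells raised H3K27ac at 236 of the sites (25.6% of all) and lowered it at 3 (2.54%), with 153 and 33 under edgeR, and 236 became 125 and 128 without Egr2 fl/fl 24 h replicate 1 and 2. The difference between genotypes in the IL-4 effect itself passed limma at none of the 604 sites (0% of all), with 121 (20.03%, against 13.1% of all sites) at an unadjusted p under 0.05, and edgeR called none. Without LyzM-Cre Egr2 fl/fl 24 h replicate 2 it passed limma at 4. The 213 became 82 without Egr2 fl/fl 24 h replicate 1, 85 without replicate 2 of that group, and 124 without LyzM-Cre Egr2 fl/fl 24 h replicate 1.

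**Figure D5:**
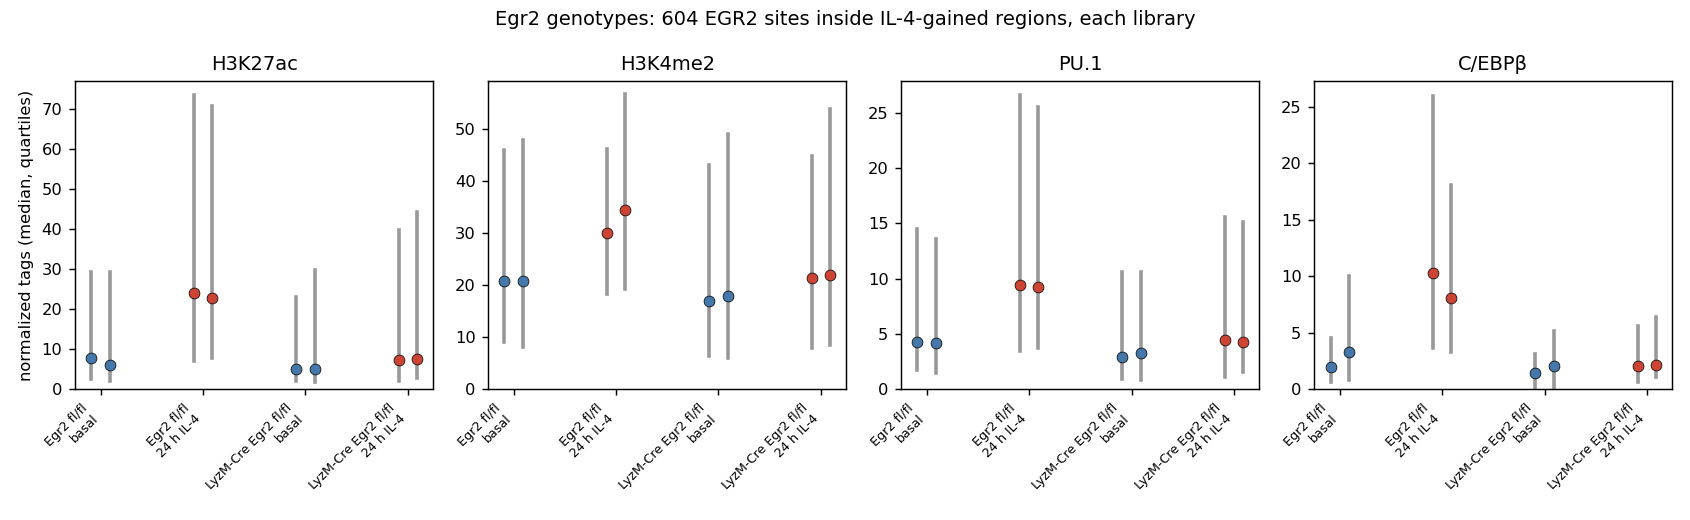
Median (point) and quartiles (line) of normalized tags over the 604 EGR2 sites inside IL-4-gained regions, one point per library, for H3K27ac, H3K4me2, PU.1 and C/EBPβ in Egr2 fl/fl and LyzM-Cre Egr2 fl/fl BMDMs, basal in blue and 24 h IL-4 in red. The H3K27ac medians at 24 h were 24.1 and 22.8 in Egr2 fl/fl and 7.27 and 7.55 in LyzM-Cre Egr2 fl/fl libraries.

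H3K4me2 at the 604 sites had medians of 30.1 and 34.4 in 24 h Egr2 fl/fl and 21.3 and 21.9 in 24 h LyzM-Cre Egr2 fl/fl libraries, and limma called it lower in the latter at 112 sites (8.94% of all) and higher at 2 (0.150%). edgeR called 40 lower and 3 higher. PU.1 had medians of 9.42 and 9.27 against 4.46 and 4.29 and was lower at 84 sites (9.36% of all) and higher at none (0.0855%), with 82 and 17 under edgeR. C/EBPβ had medians of 10.3 and 8.12 against 2.04 and 2.14 and was lower at 84 sites (8.25%) and higher at none (0%), with 7 and 4 under edgeR.

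The PU.1 and C/EBPβ counts rested on single libraries. Without Egr2 fl/fl 24 h replicate 1 or 2 limma called no PU.1 site, without LyzM-Cre Egr2 fl/fl 24 h replicate 1 it called 17 and without replicate 2 of that group 44, without Egr2 fl/fl basal replicate 1 it called 55, and the C/EBPβ count was 0 without Egr2 fl/fl 24 h replicate 1 or LyzM-Cre Egr2 fl/fl 24 h replicate 2, 1 without Egr2 fl/fl 24 h replicate 2 and 27 without LyzM-Cre Egr2 fl/fl 24 h replicate 1. For H3K4me2 the count was 31 and 23 without Egr2 fl/fl 24 h replicate 1 and 2 and 48 without LyzM-Cre Egr2 fl/fl 24 h replicate 1. STAT6 had 24 h medians of 7.47 and 5.31 against 3.09 and 2.25, which do not overlap, and a median log2 difference of -0.94 (-0.79 over all sites). PPARγ had 3.07 and 9.45 against 1.39 and 0, and -1.31 (-1.28). STAT6, with 132 sites (21.9%, against 15.01% of all) at an unadjusted p under 0.05, and PPARγ, with 100 (16.6%, against 14.3%), were called at none of the 604 sites by limma (0.0214% and 0% of all sites were called lower), and edgeR called STAT6 lower at 2 and PPARγ at none. PPARγ was called lower at 51 and 35 sites without Egr2 fl/fl 24 h replicate 1 and 2.

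Single sites, picked after their values were seen, show the size of the difference. In an intron of Rwdd1 H3K27ac at 24 h was 91.5 and 64.2 in Egr2 fl/fl and 4.16 and 3.48 in LyzM-Cre Egr2 fl/fl libraries (limma log2 difference -4.01, adjusted p = 0.000137). In an intron of Anks1 it was 117 and 93.1 against 7.27 and 11.03 (adjusted p = 0.000203). The distal Mef2c region named above for its gain in C57 cells held 55.3 and 42.4 against 3.12 and 4.64 (adjusted p = 0.000502). Its basal libraries held 0.85 and 0.68 in Egr2 fl/fl and 1.00 and 1.68 in LyzM-Cre Egr2 fl/fl cells.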

How the data were processed

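ChIP-seq of C57 BMDMs was analysed from tables that the authors deposited as tag signal, that is HOMER tags in a 1000 bp window (300 bp for factors in the Egr2 genotypes) scaled to 10000000 tags per library. The submitters' processing notes name Bowtie2 and HOMER, and the study's methods describe alignment to the genome of each strain with positions shifted to mm10. The deposited factor peak lists hold peaks reproducible between replicates by IDR, 1 list per condition, with a score that was used here only to take peaks above the median of a list. ATAC-seq peaks enter only through the condition named for each window. In the tables used, 4 value columns matched no sample and were left out.

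Multiplying each value by its library total gave whole reads for 100% of values, within 0.1 reads. Groups and replicates were taken from the labels, which call the libraries biological replicates. The main test was limma 3.58.1 (R 4.3.3), with a trended prior, on log2(signal + 1) over all windows of a table with Benjamini-Hochberg adjustment at 0.05. edgeR 4.0.16 (quasi-likelihood) and DESeq2 1.42.0 on the recovered reads were alternatives, as were other pseudocounts, minimums, folds and scalings, a replicate block and leaving out each library. Unblocked limma, edgeR and DESeq2 were run on simulated data for the basal against 24 h comparison of each mark in C57 cells. The blocked, time-course, strain and Egr2 genotype fits were not simulated. The same-numbered basal and 24 h libraries deviated together, so the blocked counts stand beside the results. The r was 0.118, 0.240 and 0.207 for Pol II, 0.470 for H3K27ac, 0.287 for H3K4me2 and 0.250 for H3K4me3. The fold rule compares group means plus 1 at 2.5-fold and needs one of the means to reach 16 tags, or 8 for Pol II.

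Named regions are the 8 largest gains and 3 largest falls of H3K27ac, the 4 largest gains of Pol II and 2 each of H3K4me2 and H3K4me3, by the fold rule with libraries that do not overlap, the 3 highest in H3K27ac at 24 h overall and under all 5 factors, and up to 10 or 3 regions of each gene list. One of the falls is not reported here. The members and lists were chosen with earlier results of these data known. Genes are those of the deposited annotation, with 99.5% of accessions matched to a RefSeq symbol, and for intergenic windows the nearest gene start, a choice made after seeing the files. Strain windows were matched within 500 bp, and each table was tested separately. Sequences and motifs are from RefSeq GRCm38.p6 (pyfaidx 0.9.0.4).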

Additional observations from a re-analysis of the deposited data

Results flagged for a closer look

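In basal cells, Pol II at the gained region of Tmem26 was 13.7 normalized tags in replicate 1 and 0.80, 0 and 1.01 in the other replicates. The gap of the highest library to the next took up 0.926 of the whole range, above the 95% critical value of Dixon's test for 4 samples, which chance passes in about 1 in 20 groups. All 3 libraries at 24 h, at 43.6 to 245, lay above it.

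At the promoter of Ptgs2 H3K27ac moved in opposite directions in C57 and PWK/PhJ cells. In C57 cells H3K27ac was 6.78 and 12.8 basal and 22.1 and 17.7 at 24 h, and in PWK/PhJ cells it was 39.5 and 21.9 basal and 10.8 and 17.2 at 24 h, a log2 fold of -1.08 in the latter. In BALB/cJ (16.2 and 15.5 basal, 16.6 and 13.3 at 24 h), NOD/ShiLtJ (18.3 and 10.3, then 13.02 and 13.5) and SPRET/EiJ (12.8 and 17.8, then 16.8 and 20.5) the libraries overlapped. The difference between the strains was not tested.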

How the results depend on the processing

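With 2 libraries per condition for the histone marks, the precision of single regions is set by the replicates more than by the depth of 7796479 to 21973750 tags, and at basal values near 0 folds rest on a few reads. Of the values given for whole groups of regions, 90 held within 1.5 times, or within their error, under an alternative that kept all libraries, and 126 did not, of which 1 turned its direction. Of the values of named regions, 77 of 78 kept both direction and side of the rule under these alternatives, and at Klf4 the log2 fold of H3K27ac passed the rule under median-ratio scaling, at 1.56. With single libraries left out, 155 of 168 did, 10 came to pass the rule, and 3 (Atl2 without 24 h replicate 2, Mark1 without 24 h replicate 1 and Cdh1 without 24 h replicate 2) no longer passed it. No cause of these shifts was tested.

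With no minimum of tags, 1940 gained regions were higher in H3K27ac, 156 lower in Pol II, 595 higher in H3K4me2, and 978 higher and 28 lower in H3K4me3. With a minimum of 32, 299 were higher in H3K27ac, 120 higher and 45 lower in Pol II, 23 higher in H3K4me2 and 63 higher in H3K4me3. With a fold of 2, 805 were lower in H3K27ac, 438 higher and 243 lower in Pol II, 1323 lower in H3K4me2, 161 higher and 31 lower in H3K4me3, and 245 higher and 117 lower in H3K27ac and Pol II together. With a pseudocount of 5, 156 were higher and 38 lower in Pol II, 63 and 48 in H3K4me2, 89 and 27 in H3K27ac and Pol II together, and 67 higher in H3K4me3, with median log2 folds of 0.15 for H3K27ac and 0.11 for H3K4me3. Without regions within 1000 bp of a basal-open one, chosen after seeing the data, 125, 44, 77 and 6 were lower in H3K27ac, Pol II, H3K4me2 and H3K4me3, and 56 higher in H3K4me3.

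Under median-ratio scaling the median log2 fold was 0.55 for H3K27ac and turned to 0.26 for H3K4me2. By the fold rule 146 regions were then lower in H3K27ac, 437 higher and 2 lower in H3K4me2, and 301 higher in BALB/cJ. By limma 1 was higher in H3K27ac, 72 higher and 10 lower in Pol II, and 115 higher and 2 lower in H3K4me2, and the time course had 31 lower at 1 h and 66 lower at 6 h. Limma on regions past the minimum alone called 37 higher in H3K4me2.

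Samples with the same number deviated together in the main table (r = 0.470 for H3K27ac, 0.287 for H3K4me2 and 0.250 for H3K4me3). Each of these marks has 2 pairs, and the labels give only the shared number. With the replicate block, limma called 1488 higher and 1730 lower in H3K27ac, 73 and 23 in Pol II, 139 and 17 in H3K4me2, and 596 and 1129 in H3K4me3, against 8.47% and 29.6%, 0.415% and 0.394%, 0.368% and 0.187%, and 3.96% and 13.1% of all windows. In the time course the block gave 520, 910 and 746 higher and 1279, 316 and 159 lower at 1, 6 and 24 h. At the Egr2 sites the block gave 7 higher for H3K27ac and 5 for H3K4me2 in LyzM-Cre Egr2 fl/fl cells, 39 lower for STAT6, and 16 lower for the H3K27ac interaction.

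Under edgeR 44 gained regions were higher and 1 lower in H3K27ac, 73 higher in Pol II, 134 higher and 1 lower in H3K4me2, and 28 higher and 6 lower in H3K4me3, and under DESeq2 356 and 46 in H3K27ac, 176 and 34 in Pol II, 1 lower in H3K4me2, and 35 and 19 in H3K4me3. At the Egr2 sites edgeR called 130 lower and 37 higher for H3K27ac, 40 lower for H3K4me2 and 2 lower for STAT6. It called 17 higher for PU.1, and 7 lower and 4 higher for C/EBPβ. IL-4 in Egr2 fl/fl cells gave 153 higher for H3K27ac and 55 for H3K4me2. The share of all sites called by edgeR was not counted.

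Over the central 200 bp alone, EGR2 peaks covered 4.77% of gained regions in basal cells, 6.98% at 1 h, 7.11% at 6 h and 18.97% at 24 h, and STAT6 peaks 6.73%, 5.72%, 5.98% and 13.4%. PPARγ covered 2.12% and 14.1% in basal and 24 h cells, PU.1 20.0% and 24.3%, and C/EBPβ 3.27% and 10.0%. With the peaks of each list above its median score the shares were 3.83%, 5.78%, 5.81% and 13.97% for EGR2, 6.07%, 5.29%, 4.98% and 9.42% for STAT6, 2.06% and 10.99% for PPARγ, 18.5% and 20.9% for PU.1, and 3.85% and 8.45% for C/EBPβ. Of the gained regions with 16 or more tags of H3K27ac, 41.7% were intronic, 25.3% intergenic, 22.7% at promoters, 5.06% in exons, 1.59% at gene ends and 1.01% in 3′ UTRs. The central 400 bases held AP-1 in 18.6%, C/EBP in 12.5%, the EGR core in 7.9997%, the PU.1 core in 14.5% and the STAT6 palindrome in 9.17%.

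Leaving out a library can leave 1 sample in a condition, which limma then takes to vary like the others. It gave, by the fold rule, 384 to 643 lower in H3K27ac, 111 to 201 higher and 127 to 1311 lower in H3K4me2, 107 to 347 higher and 14 to 53 lower in H3K4me3, and 143 to 247 higher in SPRET/EiJ. The median log2 fold ran from 0.17 to 0.39 for H3K27ac, -0.56 to -0.27 for H3K4me2 and 0.16 to 0.39 for H3K4me3. Limma gave 0 to 65 higher and 0 to 3 lower in H3K27ac, 0 to 112 and 0 to 20 in Pol II, and 0 to 306 and 0 to 3597 in H3K4me2. In the time course there were 16 to 205 higher and 11 to 1674 lower at 1 h, 36 to 541 and 6 to 221 at 6 h, and 93 to 367 and 1 to 160 at 24 h. At the Egr2 sites the genotype gave 82 to 216 lower and 1 to 3 higher for H3K27ac, 23 to 122 and 0 to 2 for H3K4me2, 0 to 2 lower for STAT6, 0 to 51 and 0 to 3 for PPARγ, 0 to 109 lower for PU.1, and 0 to 92 and 0 to 1 for C/EBPβ. IL-4 in Egr2 fl/fl cells gave 125 to 246 higher for H3K27ac and 29 to 106 for H3K4me2, and the interaction 0 to 4 and 0 to 2 lower.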
